A study of Mus musculus with 3 samples.

Results

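The 10 genes described here carry iron into cells, store it, release it or set it free from haem, and were followed in single-cell RNA-seq libraries of the mouse retina. They are Trf, Tfrc, Steap3, Slc11a2, Fth1, Ftl1, Slc40a1, Hamp, Hamp2 and Hmox1, chosen by name as 10 of the 24071 rows of each of the 3 deposited tables. All 10 had reads in all 3 libraries. The libraries were made from retinas at postnatal day 26 (P26): 1 labelled wild type (WT), 1 labelled Tspan12 knockout (KO), and 1 labelled Tspan12 KO and treated with F4L5.13. TSPAN12 is the co-receptor through which the ligand Norrin signals to retinal endothelial cells by way of FZD4 and LRP5, and F4L5.13 is an antibody agonist that joins those receptors. Per the labels, intraperitoneal F4L5.13 was given from P6, with doses of 10 mg/kg then, on P9 and on P12, and of 4 mg/kg every 3 days afterwards. The strain label Tspan12tm1.2Hjug stands on all 3 samples, wild type included, and the labels do not say how many mice each library holds. Retinas were dissociated with papain, and beads against CD73 and Annexin V removed photoreceptors and dying cells, so rods and cones here are those that escaped depletion.

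Iron travels in blood bound to transferrin, and a cell takes it up by binding transferrin to the transferrin receptor and pulling the complex into endosomes. There a reductase converts the iron and a transporter passes it to the cytosol, where ferritin stores what is not used. Ferroportin is the known cellular exporter of iron, and the peptide hormone hepcidin binds ferroportin and sends it for degradation. In the retina, the endothelial cells of the inner blood-retinal barrier and the Müller glia that wrap those vessels stand between the blood and the neurons.

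Barcodes numbered 6092 in WT, 10769 in KO and 9835 in treated, and their median depth was 14797, 7351 and 6588 reads. Of these, 5785, 9357 and 8215 were kept, and 114 clusters gave 13 cell classes named after their marker genes. The libraries shared between 15 and 31 barcode sequences with each other. Levels are in CPM, the reads of a gene scaled to a common total for each class and library, with a 95% Poisson interval, and ratios are CPM ratios with a 95% binomial interval. Both intervals cover counting error only. With 1 library for each group no test between groups was possible, so each ratio compares libraries and has no replicate check. A ratio of at least 1.5 or at most 1/1.5 is called past the fold. This was judged only for genes whose higher library reached 30 molecule equivalents. These are reads divided by a factor set for each library from the values of rare genes, 2.90 in WT, 2.87 in KO and 3.20 in treated. Whether an equivalent matches a molecule is not known. Summed reads cannot separate fewer expressing cells from less RNA per cell. Reads of Tspan12 itself stood at 27.5, 17.5 and 14.7 CPM over all kept barcodes. Which part of the allele was deleted is not stated in the labels, so those reads do not check the genotypes.

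Cells tune several of these transcripts to their iron through iron-responsive elements, hairpins in untranslated regions that iron regulatory proteins bind when iron is low. In the 5′ UTR a hairpin blocks translation, as for ferritin and ferroportin, and in the 3′ UTR hairpins protect the transcript, as for the transferrin receptor. The hairpins found by letter in the members are printed here to show the form of this switch. Each is written 5′ to 3′ as DNA with the 6-base loop in capitals, from GRCm38.
Fth1, 5′ UTR, chr19:9982733-9982759 (+): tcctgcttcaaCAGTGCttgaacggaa
Ftl1, 5′ UTR, chr7:45459780-45459806 (-): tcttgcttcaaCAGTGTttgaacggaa
Slc40a1, 5′ UTR, chr1:45925466-45925492 (-): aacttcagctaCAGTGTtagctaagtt
Tfrc, 3′ UTR, chr16:32631220-32631246 (+): attatcggaagCAGTGCcttccataat
Tfrc, 3′ UTR, chr16:32631599-32631625 (+): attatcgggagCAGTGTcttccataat
Tfrc, 3′ UTR, chr16:32631664-32631690 (+): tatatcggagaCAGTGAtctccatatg
Tfrc, 3′ UTR, chr16:32631711-32631737 (+): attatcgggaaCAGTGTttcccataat
The search asked for CAGTGN with N not G, on the transcript strand, with 5 paired bases next to the loop and at least 4 of 5 below the bulged C. Such a stretch was present in 6 of 20200 genes with a 5′ UTR of at least 27 bases (0.0297%) and in 7 of 20884 genes with such a 3′ UTR (0.0335%). The other 6 members held no match, which says only that these letters in this pairing are not in their annotated UTRs. Slc11a2 is among those 6, although one of its transcript forms is known to carry such an element.

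**Figure D1:**
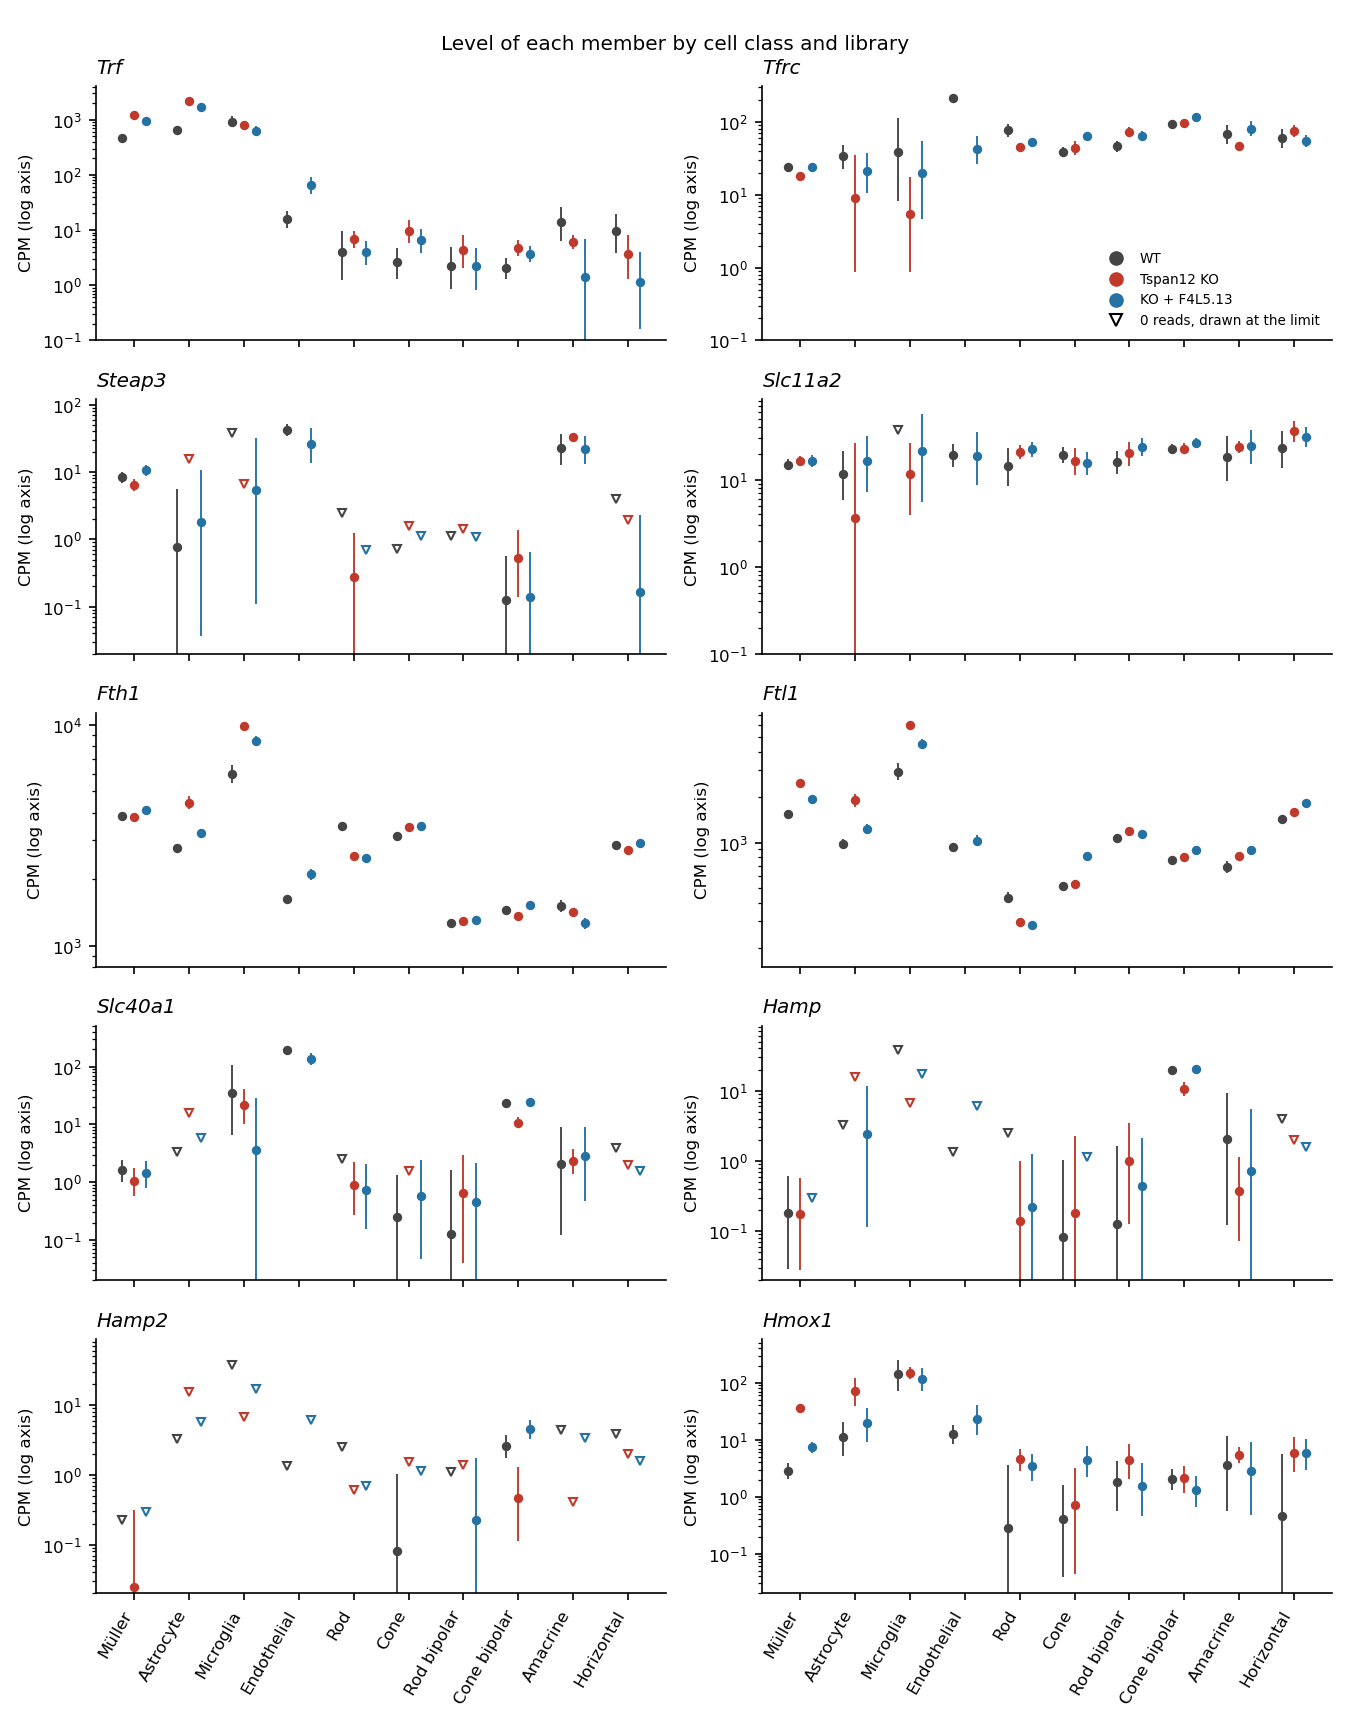
Levels of the 10 genes in each cell class, in CPM on a log axis, for the WT (grey), KO (red) and treated (blue) library, with 95% Poisson intervals. Open triangles mark 0 reads and stand at the limit of 3 molecule equivalents. Trf is high in the glial classes, Tfrc and Slc40a1 in WT endothelial cells, and Hamp and Hamp2 in cone bipolar cells.

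Transferrin (Trf, chr9:103204001-103230444) was a glial transcript in these libraries, and in Müller glia its level was higher in both knockout libraries than in WT. Müller glia are the radial glia that span the retina and end on its vessels. Their Trf level was 477 CPM in WT (95% interval 465 to 489, 1681 barcodes), 1226 in KO (1207 to 1244, 1392 barcodes) and 953 in treated (934 to 972, 1246 barcodes). The KO library was therefore highest, the treated library lay between, and no intervals overlapped. The ratio was 2.57 for KO over WT (2.50 to 2.65), 0.778 for treated over KO (0.758 to 0.797) and 2.0 for treated over WT (1.94 to 2.06). The barcodes as a whole showed the same order, with a median of 328, 839 and 620 CPM per barcode. After thinning each barcode to 5000 reads, which left out 1, 70 and 83 barcodes, Trf reads were found in 66.8%, 82.4% and 79.0% of Müller barcodes, against 81.6%, 85.8% and 85.2% before thinning.

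The Müller glia of the libraries did not fall into the same clusters, and the order of KO and treated in Trf depended on this. Of the 16 Müller clusters, the 3 numbered 2.0 to 2.2 held 1252 of 1681 WT barcodes but 32 KO and 585 treated barcodes. Clusters 5.0 to 5.3 held 36 WT, 788 KO and 136 treated barcodes. Within clusters that had at least 10 barcodes in both libraries, an alternative chosen after seeing the data, the Trf ratio was 1.61 for KO over WT and 1.64 for treated over WT. The ratio of treated over KO was 1.33 within clusters, on the other side of 1. The KO level was the higher one in 4 of 5 clusters that could be compared with WT, and the treated level was above WT in 10 of 10. In cluster 4.3, the one most evenly shared, Trf stood at 208 CPM in WT (76 barcodes), 483 in KO (87) and 413 in treated (70). In cluster 5.0, the treated level was 1997 CPM (1790 to 2220, 21 barcodes) and the KO level 1721 (1675 to 1768, 315 barcodes). Cone photoreceptor markers also moved with the Müller class, at a summed 1397, 2900 and 2655 CPM for all 10 markers, and their part in the result was not tested beyond leaving clusters out. Without the 3 Müller clusters that carried 6 or 7 cone markers, KO over WT was 2.59.

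Astrocytes and microglia, the other glia of the retina, also carried Trf. The level in astrocytes was 662 CPM in WT (53 barcodes), 2204 in KO (11 barcodes) and 1677 in treated (25 barcodes), again lowest in WT. Microglia stood at 927 CPM in WT (728 to 1164, 13 barcodes), 813 in KO (731 to 901, 68 barcodes) and 627 in treated (514 to 756, 31 barcodes). Those WT and KO intervals overlapped, and treated over KO was 0.771 (0.616 to 0.958). Müller markers were read in these microglia too, at a summed 12814, 23519 and 5354 CPM over 14, 14 and 8 of 14 markers. These markers, among them Apoe, Vim, Clu and Dbi, were not checked for expression by microglia themselves, so the sum does not measure Müller RNA. The Müller marker Rlbp1 alone had another order, at 669, 51.4 and 10.8 CPM over 155, 66 and 6 reads. In Müller glia Rlbp1 stood at 3984, 3254 and 3134 CPM. Microglia held 139, 1580 and 5783 Trf reads per 100 Rlbp1 reads, beside 12, 37.7 and 30.4 in Müller glia. The part of Müller RNA in the microglial values was not tested further. All 12 microglial markers were read in each library.

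Neurons and photoreceptors carried little Trf, between 1.14 and 13.8 CPM in classes with at least 30 barcodes. These reads were measured against Rlbp1, a transcript chosen after its values were seen. Müller glia held 12, 37.7 and 30.4 Trf reads per 100 Rlbp1 reads in the WT, KO and treated library, and cones held 3.11, 21.3 and 11 of them. Cone bipolar cells held 14.1, 46.3 and 54.5. Other classes did not follow the Müller values, with 8.79, 43.1 and 4.88 in amacrine cells and 12.3, 80 and 70 in horizontal cells, and the part of Müller RNA in neuronal Trf was not tested. The cone bipolar ratio of KO over WT went from 2.30 (1.32 to 4.09) to 0.927 when likely doublets were kept. Endothelial cells held 15.9 CPM in WT (11.1 to 22, 93 barcodes) and 66.3 in treated (45.6 to 93.2, 28 barcodes), a ratio of 4.18 (2.52 to 6.91), with 37.0 and 162 Trf reads per 100 Rlbp1 reads. Trf reads were found in 34.4% of WT and 67.9% of treated endothelial barcodes. With an unnamed cluster of endothelial and mural markers added, an alternative chosen after seeing the data, the ratio was 2.76.

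Tfrc, the transferrin receptor (chr16:32608920-32632794), was highest in WT endothelial cells and far lower in the treated ones. Endothelial cells of the barrier use this receptor to take transferrin from blood. The level was 215 CPM in WT (197 to 236) and 42.3 in treated (26.2 to 64.7), a ratio of 0.196 (0.120 to 0.304). The KO library held 1 barcode of this class, so no KO level is given. Reads of Tfrc were found in 84 of 93 WT barcodes (90.3%) and in 16 of 28 treated barcodes (57.1%), where the median depth was 70815 and 50841 reads. The median per barcode was 199.8 CPM in WT and 18.0 in treated.

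The endothelial difference was present inside the larger endothelial cluster alone, at 210.4 CPM in WT (62 barcodes) and 38.5 in treated (21 barcodes). All 12 endothelial markers were read in both libraries and summed to 17207 and 16382 CPM. Mural markers summed to 5605 and 7096 CPM, haemoglobin made up 3.08% and 2.52% of endothelial reads, and the part of either in the result was not tested. Over all 8421 genes tested in endothelial cells, 21.2% were past the fold, 6.5% higher and 14.7% lower. Of the members, 3 of 7 tested were past it: Trf higher, and Tfrc and Steap3 lower. Of the 2 on the lower side, Tfrc kept clear of the fold over its whole interval and Steap3 did not.

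Tfrc was also present in every neuronal class. In cone bipolar cells it stood at 92.9 CPM in WT (87.3 to 98.9), 97.3 in KO (90.3 to 105) and 117 in treated (111 to 125). WT and KO overlapped there, and treated was above both. Rod bipolar cells held 46.4, 72.7 and 64.4 CPM, with KO over WT at 1.57 (1.23 to 2.0) and past the fold, where 11.4% of all genes tested were. Cones held 38.6, 44.0 and 63.2 CPM, with treated over WT at 1.64 (1.31 to 2.04), where the background was 6.7% (the ratio was 1.47, inside the fold, with likely doublets kept). Amacrine cells held 68.3, 46.9 and 81.1 CPM, with treated over KO at 1.73 (1.32 to 2.24), where it was 21.8% (1.43 without the 5 barcodes with the most Tfrc reads in each library, which weighs more on the 138 treated than on the 1215 KO barcodes). Amacrine cells also filled different clusters in KO and treated, and within clusters this ratio was 1.88. Müller glia had the lowest Tfrc of the classes with at least 100 barcodes in each library, at 23.7 CPM in WT (21.1 to 26.5), 18.1 in KO (16.0 to 20.5) and 24.3 in treated (21.3 to 27.5). The KO library was the lower one in 5 of 5 comparable Müller clusters, at a ratio of 0.765 (0.645 to 0.906) that stayed inside the fold for the whole class and was 0.531 within clusters. KO thus lay above WT in rod bipolar cells and below it in Müller glia, and the difference between these classes was not tested.

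Steap3 (chr1:120190757-120272705), the endosomal reductase that readies iron for transport, was read mainly in endothelial, amacrine and Müller cells. It stood at 42.5 CPM in WT endothelial cells (34.5 to 52.0) and 25.9 in treated ones (13.7 to 44.4), a ratio of 0.608 (0.311 to 1.09) with overlapping intervals. Amacrine cells, interneurons of the inner retina, held 22.4 CPM in WT (12.6 to 36.9), 33.6 in KO (29.6 to 38.1) and 22 in treated (13.3 to 34.1). The highest amacrine levels were 169 CPM in cluster 32.1 (36 barcodes) and 114.5 in cluster 32.0 (56 barcodes), both KO. These share C1ql2, Pantr1 and Pou3f3 among their leading genes. Amacrine barcodes fell into different clusters by library, with 39 of 117 WT but 95 of 1215 KO barcodes in cluster 18.0, and only KO barcodes in clusters 18.3, 32.1 and 34.1. Over all settings KO over WT for Steap3 in amacrine cells ranged from 1.42 to 3.64 and treated over KO from 0.344 to 0.778. Müller glia held 8.40, 6.43 and 10.5 CPM, with treated over KO at 1.64 (1.22 to 2.19). Over all settings treated over KO in Müller glia ranged from 1.60 to 2.19 and KO over WT from 0.277 to 0.768. Treated over WT there ranged from 0.577 to 1.35, on both sides of 1. Rod bipolar cells and cones had 0 reads in all 3 libraries, which allows up to 1.56 CPM in the shallowest of those sums.

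Slc11a2 (chr15:100387898-100425072), the transporter DMT1 that moves iron out of endosomes, was read in neurons and glia alike. As first computed, none of its tested ratios outside rods and horizontal cells was past the fold. In endothelial cells, however, treated over WT ranged from 0.347 to 2.41 over 10 settings, with 8 on the same side of 1 as the first. In Müller glia it stood at 15.0 CPM in WT (13 to 17.2), 16.7 in KO (14.6 to 19.0) and 16.5 in treated (14.1 to 19.2), all overlapping. In the most evenly shared Müller cluster, however, KO over WT was 0.421 and treated over KO 2.38. Cone bipolar cells held 22.6, 22.9 and 26.6 CPM. Rod bipolar cells held 16.1 CPM in WT (11.7 to 21.6), 20.2 in KO (14.6 to 27.2) and 23.9 in treated (18.5 to 30.4), and treated over WT was between 1.46 and 1.60 under every setting tried. Cones held 19.4, 16.5 and 15.6 CPM, and amacrine cells 18.4, 24.0 and 24.4, with KO over WT in amacrine cells between 1.28 and 2.06. Horizontal cells held 22.9, 36.3 and 31.2 CPM, and their intervals overlapped one another too. KO over WT was 1.58 in horizontal cells, with an interval from 0.911 to 2.88 that covered 1, where 12.5% of all genes tested were past the fold. WT fell short of the minimum of molecule equivalents there. The call thus passed it only through KO, where the level was higher, and does not count as support.

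Ferritin stores iron in a shell of heavy chains, which oxidise it, and light chains, which help it form a mineral core. The heavy chain Fth1 (chr19:9980598-9985098) was nearly level between libraries in Müller glia, while the light chain Ftl1 (chr7:45457944-45459884) was not. Fth1 stood at 3859 CPM in WT, 3829.6 in KO and 4139.5 in treated Müller glia, with KO over WT at 0.993 (0.980 to 1.005). Ftl1 stood at 1538 CPM in WT (1517 to 1559.5), 2489 in KO (2462 to 2515) and 1946 in treated (1919 to 1974). The Ftl1 intervals did not overlap, and treated lay between WT and KO. Its ratios were 1.62 for KO over WT (1.59 to 1.65), 0.782 for treated over KO (0.768 to 0.796) and 1.27 for treated over WT (1.24 to 1.29).

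Unlike Trf, Ftl1 kept this order inside clusters. KO was above WT in 5 of 5 clusters, treated was above WT in 10 of 10, and treated was below KO in 9 of 10. Within clusters the ratios were 1.73, 0.824 and 1.28. Cluster 4.3 held 972 CPM in WT, 1719 in KO and 1404 in treated. The 3′ counting limits what can be said of Ftl1, because 61.4% of the 60-base stretches in the last 500 bases of its transcripts also occur in Ftl1-ps1 on chromosome 13. That row stood at 107, 143 and 65.5 CPM in Müller glia, lowest in treated, so reads shared between them may be split differently. For Fth1 and Fth-ps2 no such stretch was shared.

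**Figure D2:**
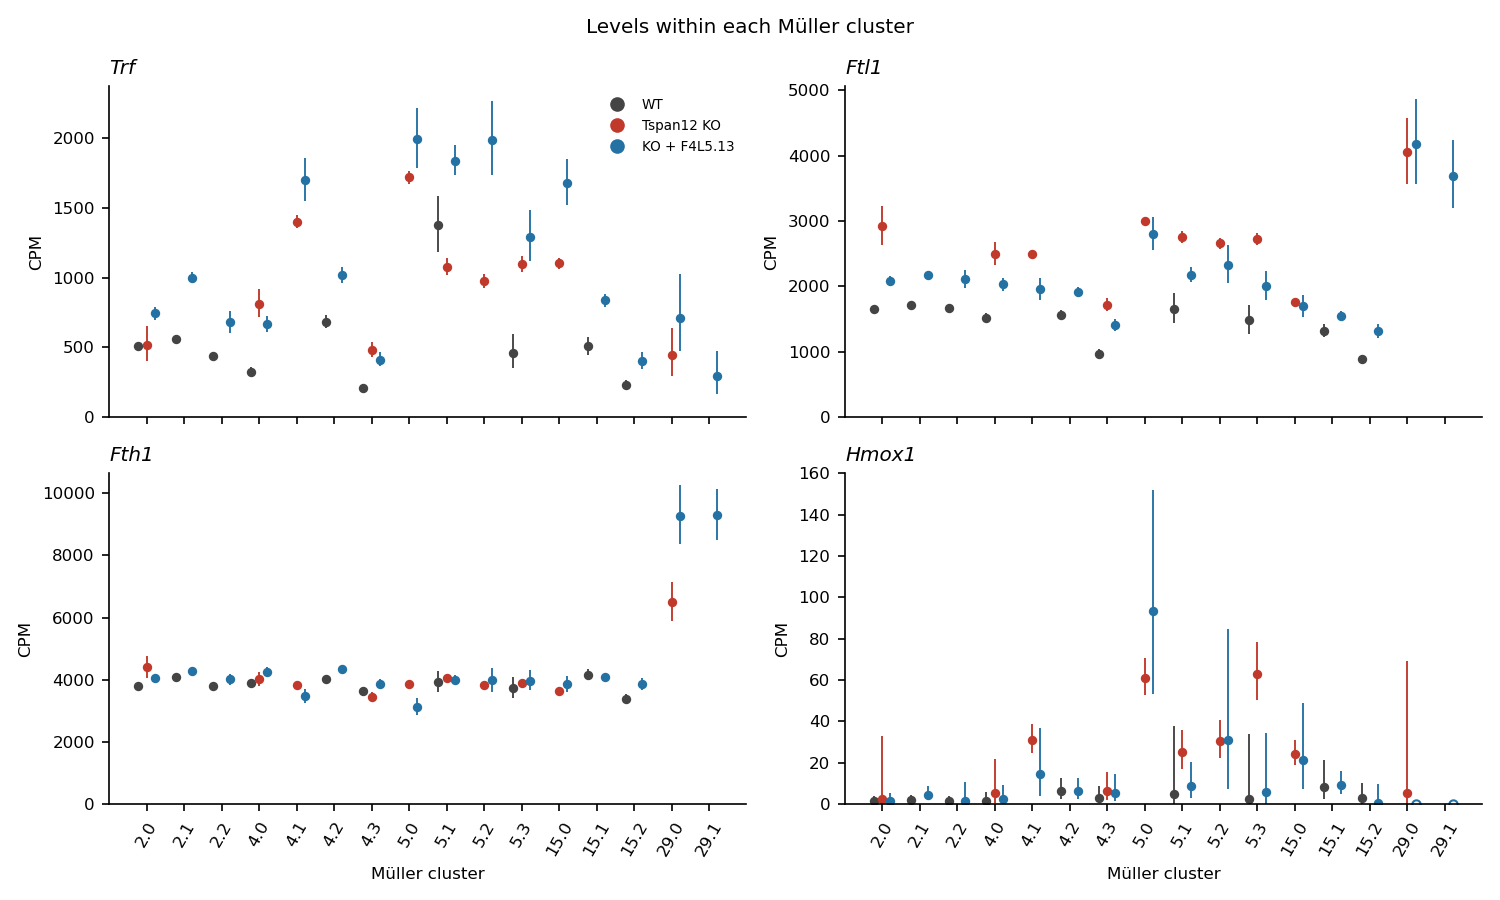
Levels of Trf, Ftl1, Fth1 and Hmox1 in CPM within each of the 16 Müller clusters, for each library with at least 10 barcodes there, with 95% Poisson intervals. Open circles mark 0 reads, without an interval. Ftl1 is lower in WT than in the other libraries in every cluster that WT shares with them, while the clusters with the highest Hmox1, numbered 5.0 and 5.3, hold few or no WT barcodes.

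Microglia, the resident macrophages of the retina, had the highest ferritin levels of all classes. Their Fth1 level was 6012 CPM in WT (5486 to 6575), 9942 in KO (9652 to 10239) and 8502 in treated (8073 to 8948). Their Ftl1 level was 2941 CPM in WT (2577 to 3343), 5969.5 in KO (5745 to 6200.4) and 4515 in treated (4203 to 4843). Both summed levels were highest in KO, with treated over KO at 0.855 (0.806 to 0.907) for Fth1 and 0.756 (0.697 to 0.819) for Ftl1. The medians per barcode differed little between KO and treated, at 9234 and 9060 CPM for Fth1 and 4626 and 4630.1 CPM for Ftl1. No ratio is given against the 13 WT barcodes. The 11 KO astrocyte barcodes also stood above WT, at 4449.6 against 2776 CPM of Fth1 and 1898 against 983 CPM of Ftl1. None of the 4 members tested in microglia was past the fold, where 23.6% of all genes tested were. Under other settings, treated over KO reached 0.658 for Trf, as a mean over barcodes, and 0.296 for Hmox1, without the 5 barcodes with the most reads in each library.

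In neurons and photoreceptors, the size of the ferritin differences depended on the class. Rod bipolar cells held 1268, 1295 and 1313 CPM of Fth1, with overlapping intervals, and cone bipolar cells held 1453, 1360.2 and 1526. Ftl1 in horizontal cells, the neurons that link photoreceptor terminals, was 1430.2, 1588 and 1818 CPM. Cones, rods aside, were the class of neurons and photoreceptors where Ftl1 passed the fold, at 515 CPM in WT (494 to 537), 535 in KO (503 to 569) and 809 in treated (775 to 843). WT and KO cones overlapped, and treated over KO was 1.51 (1.40 to 1.63), where 12.1% of all genes tested were past the fold. Endothelial Fth1 was 1628 CPM in WT and 2101 in treated, a ratio of 1.29 (1.20 to 1.38).

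Rods stood apart in depth, so their ratios are given no reading. Their median depth was 14373 reads in 215 WT barcodes but 2962 in 4234 KO barcodes and 2952.5 in 3724 treated barcodes. Over all genes tested the median log2 ratio of KO over WT in rods was 0.47, and 48.2% of genes were past the fold. Rods held 3469, 2545 and 2504 CPM of Fth1 and 432, 296 and 285 of Ftl1.

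Ferroportin (Slc40a1, chr1:45908068-45926523) was read in endothelial cells, cone bipolar cells and microglia, and its cone bipolar level was lowest in KO. Endothelial cells held 195 CPM in WT (177 to 214) and 139 in treated (108 to 176), a ratio of 0.711 (0.543 to 0.919) inside the fold. Cone bipolar cells, which relay cone signals to the inner retina, held 23.6 CPM in WT (20.8 to 26.7), 10.8 in KO (8.54 to 13.4) and 24.7 in treated (21.6 to 28.1). The KO level lay apart from both other libraries, and WT and treated overlapped. Ratios were 0.457 for KO over WT (0.351 to 0.590), 2.29 for treated over KO (1.76 to 2.99) and 1.05 for treated over WT (0.871 to 1.26). These comparisons share libraries, so the low KO level enters the first and the second alike.

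The pattern of Slc40a1 was spread over the cone bipolar clusters. KO was below WT in 21 of 28 clusters, above it in 4 and equal in 3, and treated was above KO in 21 of 28. Cluster 10.1 had the highest treated level, at 82.5 CPM in WT (81 barcodes), 19.4 in KO (28) and 121.7 in treated (54). Thinned to 5000 reads per barcode, Slc40a1 was found in 7.47%, 3.97% and 8.32% of cone bipolar barcodes, against 0.714%, 0.303% and 0.430% of Müller barcodes. The median depth of cone bipolar barcodes was 11656.5, 13007 and 13709 reads, so KO was not the shallowest library in this class. Müller glia held 1.61, 1.05 and 1.42 CPM, and horizontal cells and astrocytes had 0 reads in all 3 libraries, with limits from 1.57 to 15.7 CPM. Microglia held 34.5 CPM in WT (6.46 to 105), 21.8 in KO (10.4 to 40.4) and 3.61 in treated (0.0132 to 28.4), with few reads and overlapping intervals. Thinned to 5000 reads, 8 of 62 KO microglia (12.9%, 5.74% to 23.9%) had a Slc40a1 read.

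Mice carry 2 neighbouring hepcidin genes, Hamp (chr7:30942368-30944032) and Hamp2 (chr7:30922372-30924681). Hamp encodes the hormone that acts on ferroportin, and the liver is its main known source. The promoters are printed because the pair shared cell class and direction in these data. They are RefSeq sequences (GRCm38.p6, minus strand) of the 250 bases before the start in the RefSeq table. For Hamp2 that start lies inside the gene span given above, which comes from another annotation, so the window is not upstream of that span. Capitals mark GGCGCC, the core of a site through which BMP and SMAD signals act on hepcidin, and TTCTTGGAA, the STAT site through which interleukin-6 acts on it.
Hamp, chr7:30944030-30944279: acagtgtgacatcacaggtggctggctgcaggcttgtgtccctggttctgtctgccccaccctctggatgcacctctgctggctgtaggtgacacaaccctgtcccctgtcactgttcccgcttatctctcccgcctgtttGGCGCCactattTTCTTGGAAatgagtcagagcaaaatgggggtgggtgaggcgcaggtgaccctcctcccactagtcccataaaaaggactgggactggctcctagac
Hamp2, chr7:30924182-30924431: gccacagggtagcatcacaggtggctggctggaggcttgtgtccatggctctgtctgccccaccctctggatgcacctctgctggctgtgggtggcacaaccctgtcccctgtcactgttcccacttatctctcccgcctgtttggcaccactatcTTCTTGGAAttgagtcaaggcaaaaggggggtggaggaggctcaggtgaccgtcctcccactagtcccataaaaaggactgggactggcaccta
Of 247 aligned bases 227 were identical (91.9%). Both held TTCTTGGAA, which on either strand occurred in 0.365% of 32851 promoter windows of this length. Only the Hamp window held GGCGCC, which occurred in 9.59% of windows, and its absence from the Hamp2 window says only that these letters are not there.

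Reads of both hepcidin genes came almost wholly from cone bipolar cells, and both were lowest in KO. Cone bipolar cells gave 97.7%, 90.2% and 97.9% of all Hamp reads in the WT, KO and treated library. Their Hamp level was 19.7 CPM in WT (17.1 to 22.5), 10.5 in KO (8.29 to 13.1) and 20.5 in treated (17.7 to 23.6). As for Slc40a1, the KO interval lay apart and WT and treated overlapped. Ratios were 0.533 for KO over WT (0.406 to 0.695), 1.95 for treated over KO (1.49 to 2.58) and 1.04 for treated over WT (0.850 to 1.27). Hamp reads were found in 306 of 2022 WT barcodes (15.1%), 127 of 1201 KO barcodes (10.6%) and 250 of 1553 treated barcodes (16.1%). After thinning these were 8.02%, 3.70% and 7.51%, while Müller glia, taken as the background of free RNA, had reads in 0.179% of WT barcodes, in 0 of 1322 KO barcodes (exact upper bound 0.279%) and in 0 of 1163 treated barcodes (0.317%).

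Hamp was uneven among cone bipolar clusters. KO was below WT in 20 of 28, and treated was above KO in 21 of 28. The cluster led by Vsx1, Igfn1 and Cabp2 held 42.8 CPM in WT, 10.7 in KO and 59.1 in treated. A cluster led by Cabp2 and Gm12660 held 78.1, 16.6 and 29.7 CPM. An exception was cluster 8.1, at 36.9, 40.2 and 27.2 CPM, where KO was not low.

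Hamp2 was rarer and had the same order. Its cone bipolar level was 2.59 CPM in WT (1.72 to 3.73), 0.475 in KO (0.114 to 1.29) and 4.62 in treated (3.33 to 6.24). It was read in 42 of 2022, 5 of 1201 and 53 of 1553 barcodes. The ratio of treated over KO was 9.71 (3.32 to 42.1; 20.8 within clusters), and that of treated over WT 1.78 (1.08 to 2.98). KO over WT had fewer than 30 molecule equivalents in WT and is given no call. Shared stretches limit the separation of the pair, since 10.5% of the 60-base stretches at the end of Hamp also occur in Hamp2.

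**Figure D3:**
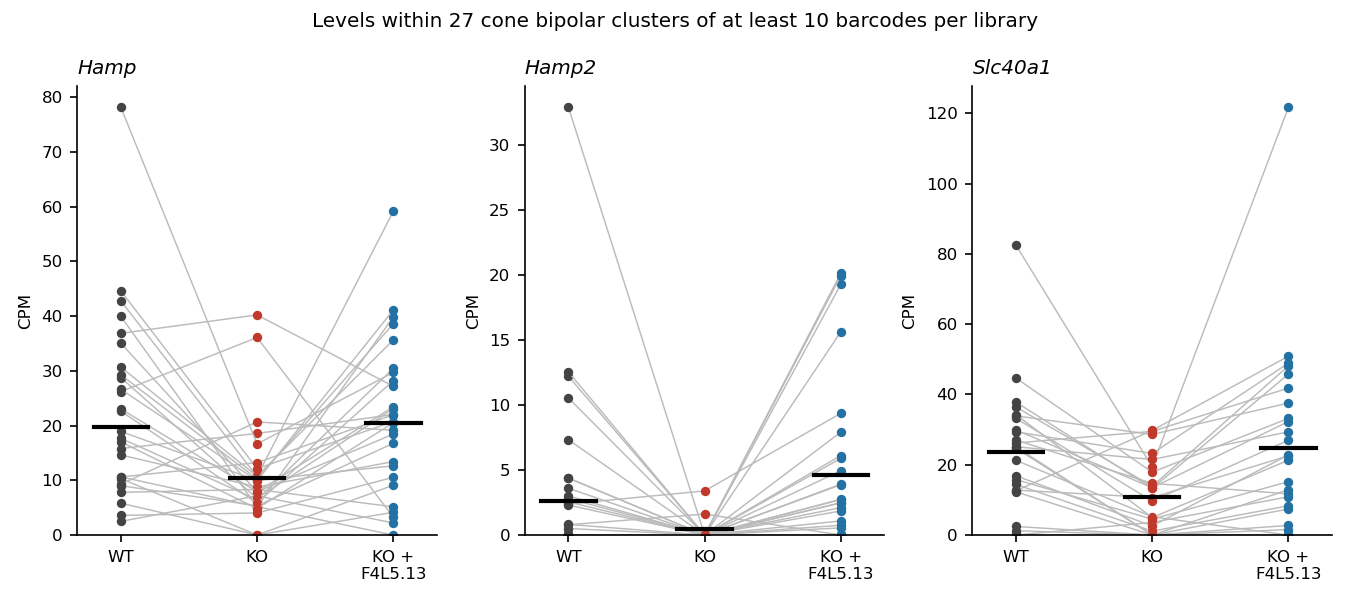
Levels of Hamp, Hamp2 and Slc40a1 in CPM within each of the 27 cone bipolar clusters with at least 10 barcodes in all 3 libraries. Grey lines join the values of 1 cluster and black bars mark the level of the whole class, which is lowest in KO for all 3 genes.

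Of the members tested in cone bipolar cells, 3 of 7 were past the fold for KO over WT: Trf higher, and Slc40a1 and Hamp lower. Of all 13411 genes tested there, 13% were past it, 7.4% higher and 5.59% lower. For treated over KO, 3 of 8 were higher (Slc40a1, Hamp and Hamp2) where 13.5% of all genes were past the fold, 5.48% higher and 7.98% lower. For treated over WT, 2 of 8 were higher (Trf and Hamp2), where the shares were 5.55%, 2.07% and 3.48%. Hamp2 reached the minimum of molecule equivalents only in the treated library, where it was high. Trf, with 66 reads in WT, 101 in KO and 110 in treated, fell short of the minimum in WT. It passed against WT only through the other library of each pair, where it was higher. The filter thus favoured the calls of Hamp2 and Trf as higher and their part in the medians, so neither counts as support. The median log2 ratio of the tested members was 0.02, 0.24 and 0.23 for the 3 comparisons, beside 0.01, -0.01 and 0.00 over all genes tested. Markers of other cell types moved with the class too. Amacrine markers, all 10 with reads, summed to 19.4, 76.2 and 17 CPM in WT, KO and treated, and rod markers to 2554, 1469 and 1841 CPM. The part of either in the result was not tested. Cone bipolar markers, all 13 with reads, summed to 4574, 4181 and 4354 CPM.

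**Figure D4:**
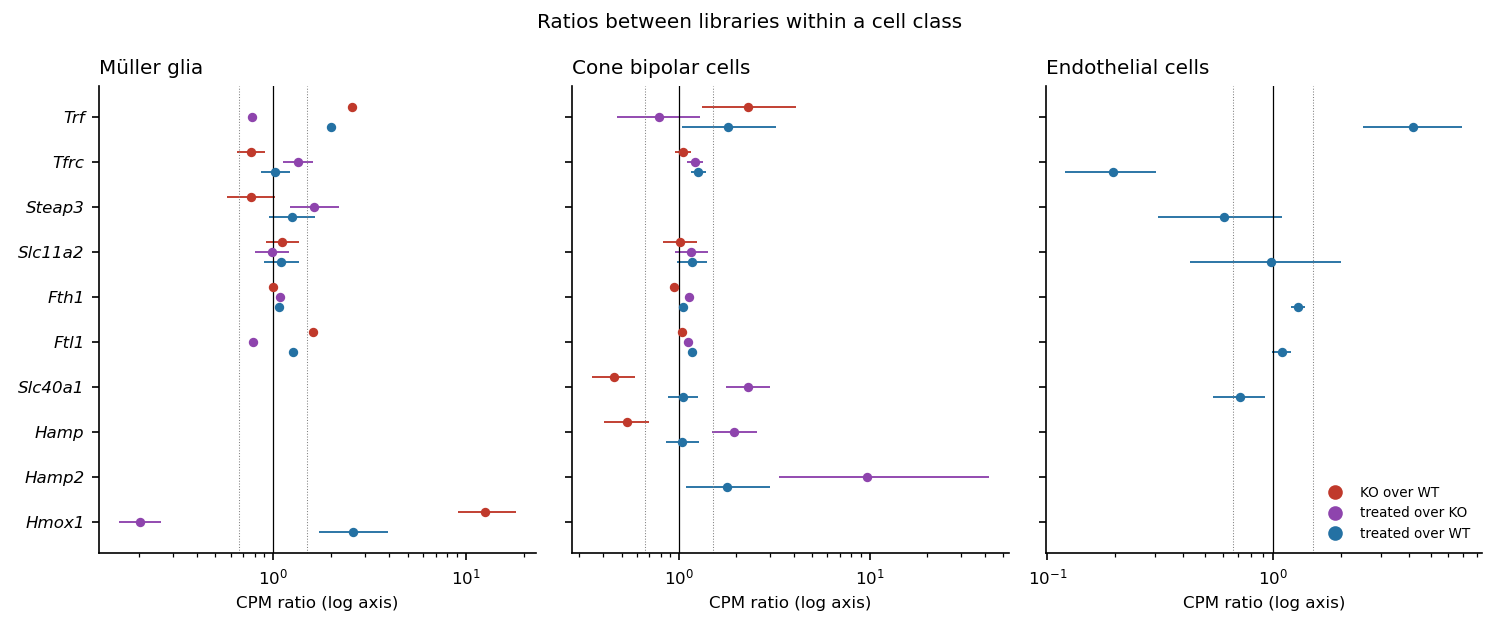
CPM ratios of the members between libraries on a log axis, for Müller glia, cone bipolar cells and endothelial cells, with 95% binomial intervals, where the higher library had at least 30 molecule equivalents. Dotted lines mark 1.5 and 1/1.5. Hmox1 lies farthest from 1 in Müller glia, Hamp2 in cone bipolar cells and Tfrc in endothelial cells.

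Hmox1 (chr8:75093621-75100589), haem oxygenase, opens the haem ring and frees its iron, and is known as a gene of oxidative stress. In Müller glia it was low in WT, high in KO and lower in treated than in KO. The level was 2.84 CPM in WT (2.0 to 3.92), 36.0 in KO (33.0 to 39.3) and 7.36 in treated (5.78 to 9.23), with no overlap. KO over WT was 12.7 (9.08 to 18.2), treated over KO 0.204 (0.158 to 0.261) and treated over WT 2.59 (1.72 to 3.95). Reads were found in 40 of 1681 WT barcodes (2.38%), 256 of 1392 KO barcodes (18.4%) and 73 of 1246 treated barcodes (5.86%). Thinned to 5000 reads these were 1.01%, 6.96% and 3.01%, beside 0.698%, 0.813% and 0.677% in cone bipolar cells. Hmox1 was thus read in a minority of Müller barcodes in every library.

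KO was above WT in 5 of 5 comparable clusters, and the highest Hmox1 levels were in clusters that few WT barcodes reached. Cluster 5.0, with 315 KO, 21 treated and 0 WT barcodes, held 61.2 CPM in KO (52.8 to 70.5) and 93.3 in treated (53.3 to 152). Cluster 5.3, led by the interferon-response genes Rsad2 and Ifit1, held 2.68 CPM in WT (up to 34.1, 16 barcodes), 63.1 in KO (50.2 to 78.3, 140 barcodes) and 5.90 in treated (0.121 to 34.4, 17 barcodes). Cluster 5.1 held 5.18, 25.2 and 8.87 CPM. In cluster 4.3, the most evenly shared, the levels were 2.85, 6.41 and 5.49 CPM with overlapping intervals. Within clusters the ratios were 5.50 for KO over WT, 0.687 for treated over KO and 1.32 for treated over WT. Microglial markers summed to 20.6, 24.7 and 25.9 CPM in Müller glia, with 9, 12 and 11 of 12 markers read, beside 43099.8, 48648 and 42110.4 CPM in microglia.

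Microglia had the highest Hmox1, at 142 CPM in WT (72.0 to 252), 148 in KO (115 to 188) and 117 in treated (72.0 to 181). All 3 intervals overlapped. Astrocytes held 11 CPM in WT (5.26 to 20.2), 72.9 in KO (39.8 to 122) and 19.3 in treated (9.24 to 35.5), in the same order as Müller glia but over 53, 11 and 25 barcodes. Endothelial cells held 12.5 CPM in WT (8.33 to 18.0) and 23.4 in treated (11.9 to 41.2), with overlap. In cone bipolar cells Hmox1 stood at 2.05, 2.09 and 1.30 CPM. Amacrine cells filled different clusters by library, with KO above WT in 4 of 4 comparable clusters and treated below KO in 5 of 5. Over all settings KO over WT there ranged from 1.53 to 10.4 and treated over KO from 0.392 to 0.525. Of all genes tested, 23.7% and 21.8% were past the fold in these 2 comparisons. In amacrine cells Hmox1 reached the minimum of molecule equivalents only in KO, where it was high. The filter thus favoured these ratios, and they do not count as support. Thinned to 5000 reads, Hmox1 was found in 1 of 111 WT, 28 of 1107 KO and 1 of 124 treated amacrine barcodes.

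In Müller glia, 7 of the 10 members were tested, and 3 were past the fold for KO over WT: Trf, Ftl1 and Hmox1, all higher. Among all 14019 genes tested there, 18.2% were past it, 9.16% higher and 9.08% lower. For treated over KO, Steap3 was higher and Hmox1 lower, against a background of 14% (6.93% higher and 7.12% lower), and for treated over WT Trf and Hmox1 were higher, against 8.46% (4.36% higher and 4.1% lower). The median log2 ratio of the 7 was 0.15 for KO over WT, -0.01 for treated over KO and 0.33 for treated over WT, beside medians from 0.00 to 0.01 over all genes tested.

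Other iron genes were read from 4 lists. Of the ferroxidases, reductases and other uptake genes, 10 of 12 in the table were tested in Müller glia for KO over WT, with 3 higher and 2 lower. Over all genes tested there, 9.16% were higher and 9.08% lower. Lcn2, which binds bacterial iron carriers and is made in inflammation, stood at 17 CPM in WT, 113 in KO and 22.3 in treated, with KO over WT at 6.62 (5.75 to 7.65). Steap4, a plasma-membrane reductase, stood at 0.342, 2.38 and 0.769 CPM, with KO over WT at 6.95 (2.59 to 24.7). It passed the minimum of molecule equivalents only through KO, where it was high. Lcn2 and Steap4 were thus highest in KO, as Hmox1 was. Of the transporters that carry iron not bound to transferrin, Slc39a14 stood at 4.40, 9.84 and 8.06 CPM, a KO over WT ratio of 2.24, and Slc39a8 at 4.79, 1.23 and 7.82 CPM, a ratio of 0.256 (0.141 to 0.443). The pair lay on opposite sides of WT in KO. Scara5, a receptor for ferritin, stood at 6.42, 3.25 and 6.77 CPM. The ferroxidases Cp and Heph, which work with ferroportin, stayed inside the fold at 724, 895 and 832 CPM for Cp and 26, 20.5 and 28.4 CPM for Heph. In endothelial cells Steap4 was 13.3 CPM in WT and 95.9 in treated, a ratio of 7.23 (4.48 to 11.8).

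None of the 8 tested genes of iron sensing and regulation and none of the 11 tested haem genes was past the fold in Müller glia for KO over WT. Farthest from 1 were Ncoa4, the receptor that delivers ferritin to lysosomes, at 1.21 (0.917 to 1.61), and Flvcr1, a haem exporter, at 0.679 (0.480 to 0.955). Hfe, a membrane protein that binds the transferrin receptor, was at 0.836 (0.712 to 0.981) and Neo1, a co-receptor of hepcidin regulation, at 0.867 (0.794 to 0.946). Slc48a1, a haem transporter, was at 0.768 (0.715 to 0.825) and Nfe2l2, a transcription factor of the oxidative stress response, at 0.895 (0.806 to 0.993). Alas1, the first enzyme of haem synthesis, stood at 0.701 (0.584 to 0.840). Aco1, the iron regulatory protein that doubles as an aconitase, was at 1.12 (0.948 to 1.33) with an interval that covered 1. Of the 9 mitochondrial iron genes 1 was past the fold, the mitochondrial importer Slc25a37, at 7.50 CPM in WT, 18.6 in KO and 12.6 in treated, a ratio of 2.48 (1.96 to 3.16). The share of all genes past the fold in this comparison was 18.2%.

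Genes with profiles most like each member were sought over 25 profiles of a class in a library, by Pearson's correlation of log2(CPM + 1). The profiles share libraries and classes, so the correlations are descriptions. Trf was most like Pdlim4 (r = 0.975), Gm26581 (0.972) and Cd9 (0.967), Steap3 like Grb14 (0.957), and Slc40a1 like Fam20a (0.913). Ftl1 was most like its pseudogene row Ftl1-ps1 (0.919), with which it shares sequence. Tfrc followed Rb1cc1 (0.909) and Hmox1 followed Trim30d (0.884). Fth1 and Slc11a2 had weaker partners, Nhp2 (0.853) and Edc3 (0.849). Hamp and Hamp2 had too few reads outside cone bipolar cells to be compared.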

How the data were processed

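Retinal cells were profiled as 10x Chromium v3 3′ libraries, per the labels' protocols. The authors deposited estimated counts per gene and barcode; the submitters' processing notes name Partek 9.0 and mm10 without a role. Between 2.33% and 2.40% of nonzero values were not whole (tolerance 0.001) and were rounded, which set 3.33% to 3.39% to 0. No source used here states whether reads were collapsed to molecules. Values of rare genes were at 1 in 48.2% to 53.3% of cases, so intervals were computed on values divided by 2.90 in WT, 2.87 in KO and 3.20 in treated, called molecule equivalents. No gene in these tables was measured in a replicate library, and no test between groups was made.

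Barcodes with at least 500 genes and at most 20% mitochondrial reads were kept. The 296, 882 and 702 barcodes most like simulated doublets were left out. Barcodes were scaled to 10000 reads and clustered on 2000 variable genes and 40 principal components with 15 neighbours (leidenalg 0.10.2, resolution 1.0, then 0.5 within clusters). A cluster was named from at least 3 markers that were 2-fold higher and read in 20% of its barcodes. The naming rule was refined after seeing the clusters, by naming in a second pass and by merging and then splitting the bipolar lists. Reads were summed by class and library. Ratios needed 30 barcodes in each library, except 10 in endothelial cells, and levels needed 10. Intervals are exact Poisson for levels, conditional binomial for ratios and Clopper-Pearson for shares. The limit of 0 reads is 3 molecule equivalents. Computation used Python 3.11.15, numpy 2.4.6, scipy 1.17.1 and pandas 2.3.3, and the interval and ratio code was tested on simulated data.

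All 10 members are named. Of each of the 4 other iron lists, the up to 4 tested genes farthest from 1 for KO over WT in Müller glia were to be named; Scara5, Cp and Heph were added after their values were seen. The members and lists were chosen with earlier results of these data known. Alternatives were other scalings, filters, doublet handling, averaging, clusters, fold and minimum. Ratios within clusters, without Müller clusters carrying photoreceptor markers, and with an unnamed vascular cluster were chosen after seeing the data. Promoter sequences matched 6 of the 10 members.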

Additional observations from a re-analysis of the deposited data

How the results depend on the processing

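Using values without rounding, CPM without mitochondrial reads, scaling by the median ratio, or stricter filters on detected genes and mitochondrial reads, the 18 main values each kept their direction and count. Leaving out Müller clusters with photoreceptor markers did the same for 8 of 8. For Trf in Müller glia, KO over WT was 2.47 with likely doublets kept, 2.37 as a mean over barcodes, 2.32 in the most evenly shared cluster and 1.61 within clusters. For Hmox1 it was 2.25 in the most evenly shared cluster and 5.50 within clusters. Tfrc in endothelial cells, treated over WT, was 0.106 without the 5 barcodes with the most reads, which removes 5 of 28 treated but 5 of 93 WT barcodes and so lowers the ratio by construction. Trf in cone bipolar cells went to the other side of 1, at 0.927 for KO over WT with doublets kept and 0.957 for treated over WT without the top 5 barcodes. Trf in amacrine cells did so for KO over WT, at 1.65 with doublets kept.

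Counts of members past the fold moved as follows. In Müller glia, KO over WT, 1 was lower in the most evenly shared cluster and 2 within clusters. The count of higher members was 2 in the most evenly shared cluster and at a fold of 2. For treated over KO, 0 were lower in the evenly shared cluster and within clusters, and 0 were higher at a fold of 2. For treated over WT, 1 was higher in the evenly shared cluster, within clusters, at a fold of 2 and with at least 100 molecule equivalents. In cone bipolar cells, KO over WT, 0 were higher with doublets kept, without the top 5 barcodes, within clusters and with at least 100 molecule equivalents, and 1 was lower at a fold of 2. For treated over KO, 1 was lower as a mean over barcodes. The count of higher members was 4 with doublets kept, and 2 at a fold of 2 and with at least 100 molecule equivalents. For treated over WT, 1 was higher as a mean over barcodes and without the top 5 barcodes, and 0 at a fold of 2 and with at least 100 molecule equivalents. In endothelial cells, 1 was lower with doublets kept and with the unnamed vascular cluster. This count was also 1 at a fold of 2 and with at least 100 molecule equivalents. It was 3 as a mean over barcodes and within clusters, and 4 without the top 5 barcodes. There, 2 were higher as a mean over barcodes and with the vascular cluster, and 0 without the top 5 barcodes, within clusters and with at least 100 molecule equivalents. Fewer reads are tested when barcodes or clusters are left out; otherwise the cause was not tested.

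Leaving out Müller clusters with 3 or more markers of any other class gave no value, since glial markers shared with astrocytes left almost no WT barcodes. No paired analysis was possible because each group has 1 library. Depth limits Hamp2, Steap3 and Hmox1 outside the classes named, and microglia, astrocytes and endothelial cells rest on few barcodes.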

Other observations

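Iron genes were also read in clusters that the marker rule left unnamed. Cluster 31.3, with 10 KO barcodes, held 12867 CPM of Fth1 (12045 to 13731), 6468 CPM of Ftl1 (5889 to 7089) and 143 CPM of Hmox1 (68.8 to 262). Its Slc40a1 level was 73.8 CPM (24.7 to 169) over 4 of the 10 barcodes. Cluster 28.2, with endothelial and mural markers and 20 WT barcodes, held 129 CPM of Tfrc (94.3 to 171) and 149.6 CPM of Slc40a1 (112 to 195).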
